A study of Mus musculus with 9 samples.

Results

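The genes described here encode amino acid and neurotransmitter transporters of the cell membrane and the lysosome, in the solute carrier families Slc1, Slc6, Slc7 and Slc38. They were taken as all probe sets of the array that carry a single gene symbol of these families, and the brightest probe set over the 9 arrays stood for each gene. This gave 49 genes of the 18193 measured, with 7 in Slc1, 18 in Slc6, 15 in Slc7 and 9 in Slc38. The study set cultured neural stem cells (NSC) of the third ventricle of the mouse with and without the tumour suppressor gene Nf1 beside stem cells grown from mouse optic glioma, a low-grade tumour of the optic nerve. Wild-type NSC came from C57BL/6 pups of genotype Nf1flox/flox at postnatal day 1 and received a control LacZ virus, so that their Nf1 alleles were floxed but left in place. Nf1-null NSC came from pups of the same strain, genotype and age and were given Cre by virus, so that the floxed stretch was lost in culture. Glioma stem cells (GSC) came from optic nerve of C57BL/6 mice of genotype Nf1+/-GFAP CKO at 3 months of age. In this model Cre, made under the GFAP promoter, inactivates the remaining Nf1 copy in cells of the GFAP lineage, and the other cells of the animal keep that copy. The groups had 3 arrays each. Independent cultures are stated for the NSC only, so p-values measure only the spread between these samples, which may be technical. GSC differ from both NSC groups in tissue, age and genotype as well as in tumour origin. Both NSC groups also received a virus in culture, and none is named for GSC. These differences cannot be told apart. All cells grew in low-attachment dishes with FGF at 20 ng/ml and EGF at 20 ng/ml.

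As background, the Slc1 family holds the sodium-coupled glutamate transporters that clear glutamate from the space around cells and a pair of exchangers for small neutral amino acids. Slc6 proteins use sodium and chloride to take up GABA, glycine, taurine, creatine, proline and the monoamines. Slc7 holds carriers of arginine and lysine and the light chains of exchangers such as the leucine carrier Slc7a5 and the cystine carrier Slc7a11, which work only when joined to a heavy chain, mostly Slc3a2. Slc38 carriers move glutamine and alanine, and astrocytes and neurons use them to pass glutamine between cells. When amino acids run short, the kinase Eif2ak4 slows translation, the factor Atf4 builds up, and Atf4 with C/EBP proteins switches on genes for amino acid synthesis and uptake.

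Promoter sequence was also read, and its part in the transporter signals below was not tested. The core of the element that Atf4 and C/EBP proteins bind was searched as TGATGNAA on both strands, in windows of 300 bases from 250 before to 50 after each RefSeq start (GRCm38.p6). Of the 49 genes, 34 had a window, and 4 of these, 11.8%, held a match (Slc7a11, Slc1a4, Slc7a7 and Slc6a21), against 4.51% of all 27025 genes with a window. Some genes have several windows, and by window 9.26% of the 54 held a match, against 3.97% of all 32851. Windows of Slc7a1 and Slc38a2 held none, and Slc7a3 and Slc7a5 had no window. The stretches of Slc7a11 and Slc1a4 are shown because these were the genes with a match that lay among the brighter genes, and the matches of Slc7a7 and Slc6a21, which were dim, are not shown. Both are on the minus strand and read 5' to 3' in the direction of the gene, with the matches in capitals.
Slc7a11, chr3:50443626-50443725: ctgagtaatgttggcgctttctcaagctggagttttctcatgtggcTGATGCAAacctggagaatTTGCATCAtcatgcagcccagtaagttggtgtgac
Slc1a4, chr11:20332704-20332773: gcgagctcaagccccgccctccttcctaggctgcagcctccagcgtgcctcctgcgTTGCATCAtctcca
In Slc7a11 a match on each strand begins 66 and 47 bases before the start and faces the other, and in Slc1a4 a match on the opposite strand begins 4 bases before it. A match describes the letters and was not tested as a binding site.

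Signals were on a linear scale with a trimmed mean of 1500 on each array and medians between 264.7 and 287.4. Of the 49 transporter genes, 21 lay among the 9097 brighter genes, those with a mean log2 signal at or above the median of all genes, and 16 lay among the dimmest 25% of genes. The Nf1 probe set read 1139.5, 919.5 and 999.9 in wild-type NSC, 430.3, 646 and 577 in the Nf1-null NSC and 623, 600.1 and 549 in GSC, so each Nf1-null and GSC array was below each wild-type array. The sources used here do not say whether it lies in the deleted stretch. The stem cell genes Sox2 and Fabp7 were bright in all groups, with Sox2 at 28137 or above on every array. Markers of microglia (9 genes, summed signal 601 to 1099), endothelium (7 genes, 758 to 1363) and fibroblasts or mural cells (7 genes, 715 to 1955) were dim, apart from Acta2. Acta2, of the last list, lay among the brighter genes and read 231.9 to 1303. Of 9 stem or progenitor genes, Sox9 and Msi1 fell in GSC against wild-type NSC and 0 passed in the other contrasts. Of 7 markers of myelinating oligodendrocytes, Opalin fell in GSC against Nf1-null NSC, while 4 of the 7 differences were positive with a median of 0.96. Mbp read 2009, 495 and 6599 in wild-type NSC, 376, 189 and 297 in the Nf1-null NSC and 2601, 29057 and 65239 in GSC (GSC against Nf1-null NSC 5.94, SE 1.30, adjusted p = 0.0799). This list summed to between 42372 and 63558 in wild-type NSC, 20446 to 45054 in the Nf1-null NSC and 27270 to 92718 in GSC. Emcn of the endothelial and Acta2 of the mural list fell in GSC against both NSC groups, and 0 microglial genes passed in limma at the adjusted p, with 0 to 2 by contrast at an unadjusted p under 0.05.

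GSC differed from wild-type NSC in 5 transporter genes at an adjusted p under 0.05 (limma, Benjamini-Hochberg over all 18193 genes). Slc6a6, the taurine transporter, rose, and Slc1a3, a glial glutamate transporter, Slc6a9, a glycine transporter, Slc6a11, a GABA transporter, and Slc38a1, a glutamine carrier, fell. That is 10.2% of the 49, against 9.06% of all genes in this comparison, so the share was near the background (3.46% of all genes rose and 5.6% fell). GSC differed from Nf1-null NSC in 2 transporter genes, Slc6a6 and the betaine and GABA transporter Slc6a12, which both rose. This was 4.08%, against 1.75% of all genes in both directions and 0.671% for rises, while 0 fell against 1.08% of all genes. Between Nf1-null and wild-type NSC 0 of 49 passed, as did 0.0% of all genes, while 12 of 49 and 16.8% of all genes had an unadjusted p under 0.05.

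**Figure D1:**
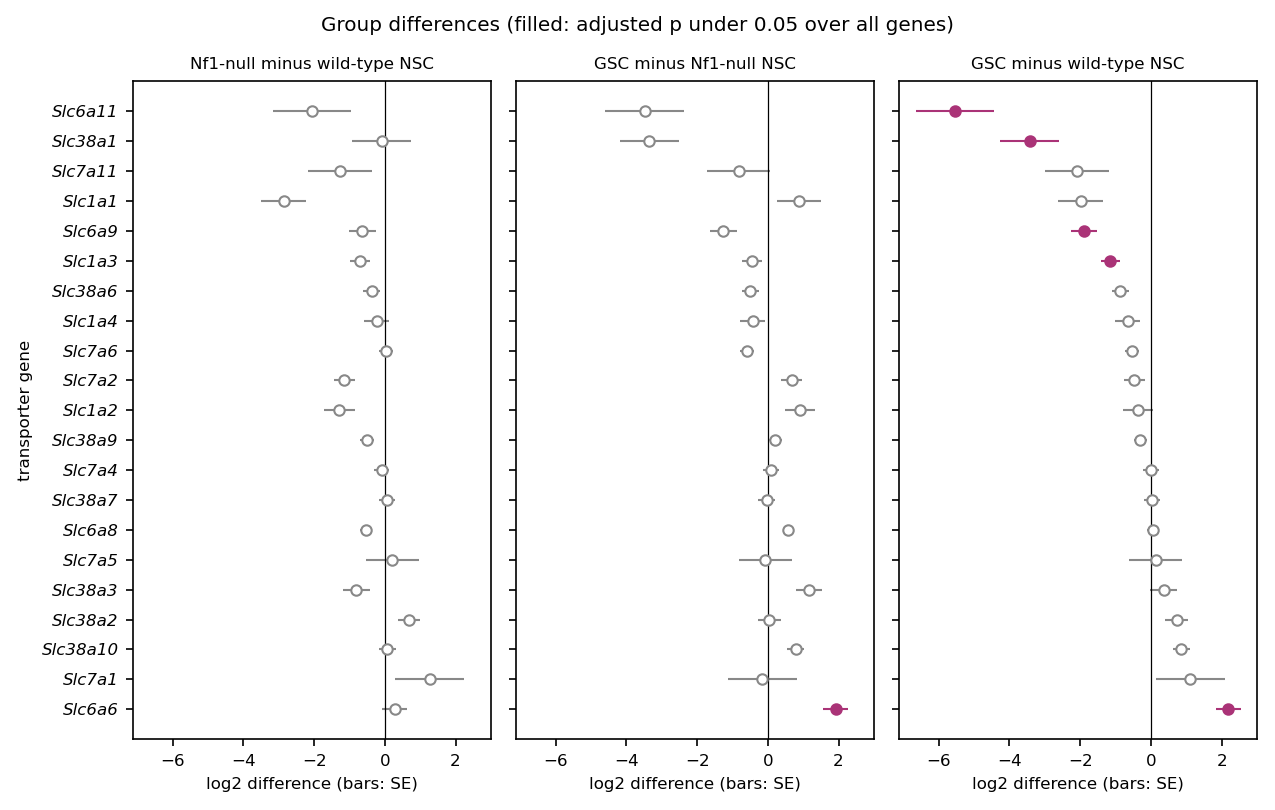
Log2 differences (x axis) of the 21 brighter transporter genes (rows) between groups, 3 arrays each, with bars for the moderated standard error and filled points for an adjusted p under 0.05 over all genes. Slc6a6 is filled in both panels with GSC, and Slc1a3, Slc6a9, Slc6a11 and Slc38a1 are filled only against wild-type NSC, while the panel of Nf1-null against wild-type NSC has no filled point.

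The groups separated without overlap in 11 of the 49 genes between the NSC (22.4%, against 23.8% of all genes), in 14 between GSC and Nf1-null NSC (28.6%, against 21.9%) and in 18 between GSC and wild-type NSC (36.7%, against 34.8%). Of the 11 between the NSC, 10 were lower in Nf1-null NSC (14.1% of all genes) and 1 was higher (9.75%). Of the 14 between GSC and Nf1-null NSC, 8 were higher (9.24% of all genes) and 6 lower (12.7%), and of the 18 between GSC and wild-type NSC, 5 were higher (13.9%) and 13 lower (20.9%). Among the 21 brighter transporter genes the groups separated in 6 between the NSC (31.9% of the brighter genes), in 8 between GSC and Nf1-null NSC (27.1%) and in 13 between GSC and wild-type NSC (47.3%). Differences were negative for 32 of the 49 between the NSC (55.5% of all genes), for 25 between GSC and Nf1-null NSC (53.2%) and for 30 between GSC and wild-type NSC (56.1%). The median log2 difference of the 49 was -0.23 between the NSC, -0.03 between GSC and Nf1-null NSC and -0.12 between GSC and wild-type NSC, against -0.06, -0.04 and -0.09 for all genes. The brighter transporter genes had a larger median spread between replicates than all brighter genes. Their median SD on the log2 scale was 0.341 in wild-type NSC, 0.519 in Nf1-null NSC and 0.249 in GSC, against 0.185, 0.229 and 0.182.

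**Figure D2:**
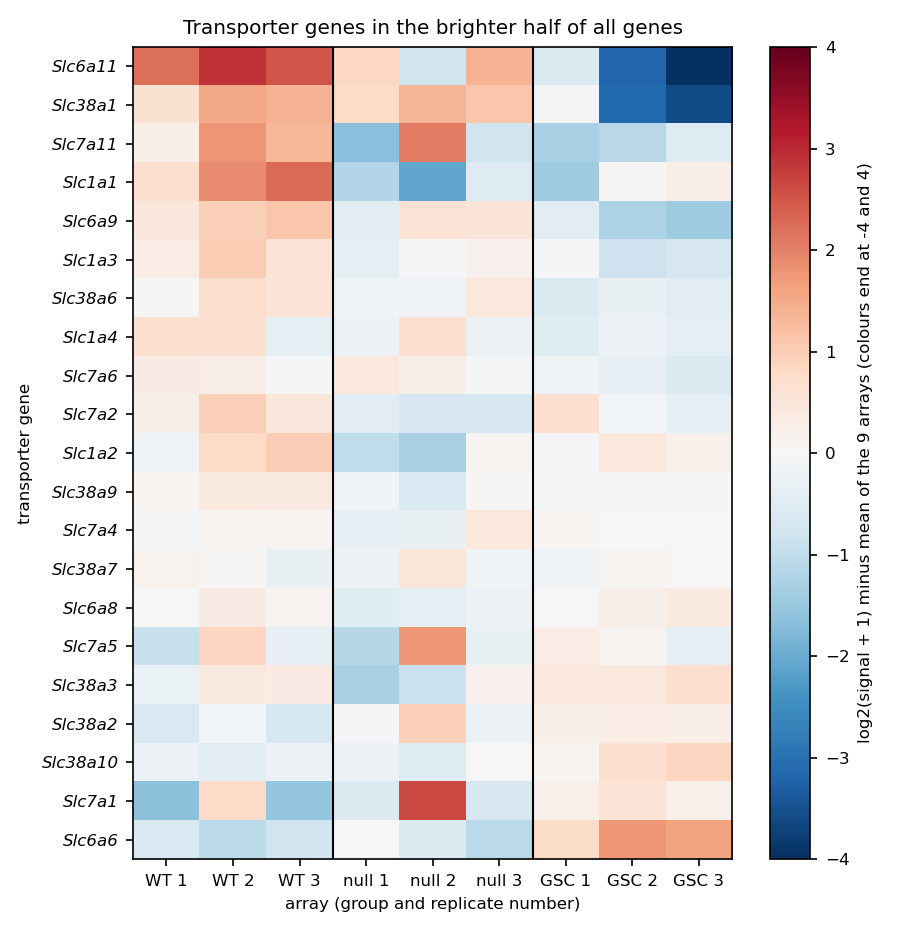
Log2(signal + 1) of the 21 brighter transporter genes (rows) on each of the 9 arrays (columns), less the mean of the gene over the arrays, in colour. Slc6a11 and Slc38a1 are lowest on GSC arrays 2 and 3 (Slc6a11 on GSC array 3 lies past the end of the colours), Slc6a6 is highest on the GSC arrays, and Slc7a1, Slc7a5 and Slc7a11 are each highest on Nf1-null array 2.

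Of the glutamate transporters, 5 were measured, 1 fell in GSC against wild-type NSC (Slc1a3), and in the other contrasts 0 passed, while 4 of the 5 had an unadjusted p under 0.05 in limma between the NSC, as did 16.8% of all genes. Slc1a3 encodes GLAST, which takes up glutamate in radial glia and astrocytes. Its signals were 36399, 60617 and 42886 in wild-type NSC, 23233, 29040 and 33347 in the Nf1-null NSC and 28352, 16657 and 18612 in GSC. All wild-type arrays were above all others, and the Nf1-null and GSC arrays overlapped. GSC were 2.21-fold lower than wild-type NSC (log2 difference -1.14, SE 0.28, adjusted p = 0.0472), and Nf1-null NSC were 1.61-fold lower (log2 difference -0.69, SE 0.28, adjusted p = 0.277). The other 5 probe sets of Slc1a3 had the same sign in GSC against wild-type NSC. This call held when GSC array 1 was left out (adjusted p = 0.0289) and was lost when any other single array was (0.0616 to 0.148). Over 21 alternatives it passed in 8, with an adjusted p from 0.00958 to 0.177, and with the replicate number as a block it was 0.0875. In this bulk RNA, fewer cells of a type and less RNA per cell cannot be told apart.

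Slc1a1 encodes EAAC1, a glutamate and cysteine transporter known mainly from neurons. It had the largest log2 difference of the 21 brighter transporter genes between the NSC groups. Its signals were 1435, 3319 and 4315 in wild-type NSC, 397, 213 and 630.2 in the Nf1-null NSC and 329, 921 and 1085 in GSC. Every Nf1-null and GSC array lay below every wild-type array, and Nf1-null and GSC arrays overlapped. The difference was -2.86 (SE 0.63, adjusted p = 0.131) for Nf1-null against wild-type NSC and -1.99 (SE 0.63, adjusted p = 0.0923) for GSC against wild-type NSC. Neither passed over all genes. The first had an adjusted p of 0.0338 when only the brighter genes were tested, and over 21 alternative settings it ran from 0.0157 to 0.585 and passed in 4. By same-numbered NSC arrays Slc1a1 was lower in the Nf1-null member of each pair, by 3.61, 15.5 and 6.84-fold, and both of its other probe sets, which are dim, had the same sign. Neuronal markers (8 genes) summed to 52933 to 60888 in wild-type NSC, 45583 to 47302 in the Nf1-null NSC and 37916 to 45717 in GSC, with none at 0. Map2 made up most of each sum. It read 48210 or above on the wild-type arrays, 42715 or above on the Nf1-null arrays and 31879 to 42239 on the GSC arrays. Counted by gene, GSC against wild-type NSC had 4 positive and 4 negative differences (median 0.12). GSC against Nf1-null NSC also had 4 of each sign (median 0.35), and between the NSC 6 of 8 were negative (median -0.44). Of the 8 markers, Rbfox3 and Snap25 fell in GSC against wild-type NSC, Tubb3 rose against Nf1-null NSC and 0 passed between the NSC. The part of these markers in the Slc1a1 values was not tested.

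Slc1a2 encodes GLT-1, the main glutamate transporter of mature astrocytes. It read 13243, 25056 and 29023 in wild-type NSC, 7216, 5949 and 15564 in the Nf1-null NSC and 13747, 19385 and 16748 in GSC, so that the groups overlapped in each comparison. The log2 difference was -1.28 between the NSC (SE 0.43, adjusted p = 0.208), 0.91 for GSC against Nf1-null NSC (SE 0.43, adjusted p = 0.343) and -0.37 for GSC against wild-type NSC (SE 0.43, adjusted p = 0.637). A further probe set that names Slc1a2 together with another gene was left out. Slc1a6 and Slc1a7, glutamate transporters of Purkinje cells and retina, were dim, between 11.2 and 176.5. Slc1a6 missed the threshold in GSC against wild-type NSC, with a log2 difference of -2.39 (SE 0.62, adjusted p = 0.0532).

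Astrocyte markers were read beside these transporters. Of 10 measured, 5 fell in GSC against wild-type NSC (Aldh1l1, Aqp4, Gja1, Glul and Fgfr3), 3 fell against Nf1-null NSC (Aldh1l1, Aqp4 and Gja1) and 0 passed between the NSC, where all 10 differences were negative. Their signals summed to between 289000 and 335540 in wild-type NSC, 137880 to 237500 in the Nf1-null NSC and 119200 to 164890 in GSC. None was at 0, and Aqp4, the water channel of astrocyte endfeet, read 21585, 15426 and 22502 in wild-type NSC, 8139, 1734 and 5382 in the Nf1-null NSC and 258, 118 and 66.2 in GSC. Their median log2 difference was -1.11 between the NSC, -1.69 between GSC and Nf1-null NSC and -2.76 between GSC and wild-type NSC. In GSC against Nf1-null NSC the differences of Slc1a2 and Slc1a1 were positive (0.91 and 0.87, neither past the threshold). So were those of 3 of the 10 markers (Apoe, Aldoc and S100b). Those of Slc1a3, Slc6a9 and Slc6a11 were negative there (-0.45, -1.26 and -3.49, none past the threshold). Aldh1l1 differed by -0.15 between the NSC (SE 0.39, adjusted p = 0.879). S100b was the one marker with a positive difference in GSC against wild-type NSC, at 1.95 (SE 0.54, adjusted p = 0.0656). The part of these markers in the transporter values was not tested.

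The exchangers Slc1a4 and Slc1a5, which trade alanine, serine, cysteine and, for Slc1a5, glutamine, did not pass in any contrast. Slc1a4 read 7455, 7384 and 3663 in wild-type NSC, 4075, 7553 and 4029 in the Nf1-null NSC and 3387, 4054 and 3721 in GSC. Slc1a5 read 183, 209 and 48.1 in wild-type NSC, 204, 969 and 161 in the Nf1-null NSC and 124, 219 and 199 in GSC. The highest Nf1-null array, numbered 2, was 4.74 times the next of its group. The other probe set of Slc1a5, also dim, read 196.6, 201.5 and 95.6 in wild-type NSC and 91.3, 192.3 and 98.9 in Nf1-null NSC.

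The transporters of GABA, taurine, betaine and creatine held both rises and a fall. Of 5 measured, Slc6a6 and Slc6a12 rose in GSC against Nf1-null NSC, and against wild-type NSC Slc6a6 rose and Slc6a11 fell. Slc6a6, which takes up taurine, an organic solute that cells use to set their volume, read 820.5, 604 and 722 in wild-type NSC, 1245, 857 and 596 in the Nf1-null NSC and 2109, 4181 and 3875 in GSC. Every GSC array was above every NSC array, and the NSC groups overlapped. GSC were 4.57-fold above wild-type NSC (log2 difference 2.19, SE 0.35, adjusted p = 0.017) and 3.77-fold above Nf1-null NSC (log2 difference 1.91, SE 0.35, adjusted p = 0.0463). All 3 other probe sets had the same sign, and the brightest of them read 246.9 to 328.3 in wild-type NSC and 1258 to 1774 in GSC. The call against wild-type NSC passed in 16 of 21 alternatives, with adjusted p from 0.00217 to 0.0891, and was lost without wild-type array 2 or 3 or GSC array 2 or 3 (0.0519 to 0.0679). The call against Nf1-null NSC passed in 8 of 21, with adjusted p from 0.00874 to 0.186, and without GSC array 1 it was 0.0189 while without any other single array it was 0.0701 to 0.165. With the replicate number as a block it was lost (0.109).

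Slc6a11 encodes GAT-3, which takes up GABA into astrocytes. Its signals were 9255, 14827 and 11356 in wild-type NSC, 3516, 1152 and 5276 in the Nf1-null NSC and 1333, 221 and 50.4 in GSC. Every wild-type array was above every other array, and GSC array 1 lay above the lowest Nf1-null array. GSC were 46.8-fold below wild-type NSC (log2 difference -5.55, SE 1.11, adjusted p = 0.0281). The difference was -2.06 (SE 1.11, adjusted p = 0.396) for Nf1-null against wild-type NSC and -3.49 (SE 1.11, adjusted p = 0.177) for GSC against Nf1-null NSC. By same-numbered arrays the Nf1-null NSC were lower by 2.63, 12.9 and 2.15-fold. The call was lost without any single wild-type array or without GSC array 2 or 3 (adjusted p 0.0605 to 0.0967) and was 0.00797 without GSC array 1. With the mean of both probe sets it was 0.0644, within 0.0045 to 0.108 over 21 alternatives.

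Slc6a12 encodes BGT-1, a betaine and GABA transporter. It was among the dimmest genes, at 7.7, 13.8 and 17.6 in wild-type NSC, 8.4, 5.5 and 4.5 in the Nf1-null NSC and 19.6, 22.5 and 26.4 in GSC. GSC arrays were above all NSC arrays, with a log2 difference of 1.77 (SE 0.32, adjusted p = 0.0463) against Nf1-null NSC. With a pseudocount of 16 in place of 1 the difference was 0.81 and the adjusted p 0.066, with the replicate number as a block it was 0.101, and 4 of 18 alternatives passed (0.0433 to 0.197). Left-out single arrays gave 0.0442 without wild-type array 1, 0.0492 without GSC array 1 and 0.0587 to 0.163 for the rest. Slc6a8, for creatine, read 4714, 5840.2 and 5108 in wild-type NSC, 3320.4, 3525 and 3957 in the Nf1-null NSC and 4728, 5465 and 6031 in GSC. Nf1-null arrays lay below all others, with differences of -0.53 (SE 0.16, adjusted p = 0.194) against wild-type NSC and 0.58 (SE 0.16, adjusted p = 0.138) for GSC against Nf1-null NSC. Slc6a13, a further GABA transporter, was at 6.0 to 18.6 on all arrays but Nf1-null array 2, where it read 118.

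**Figure D3:**
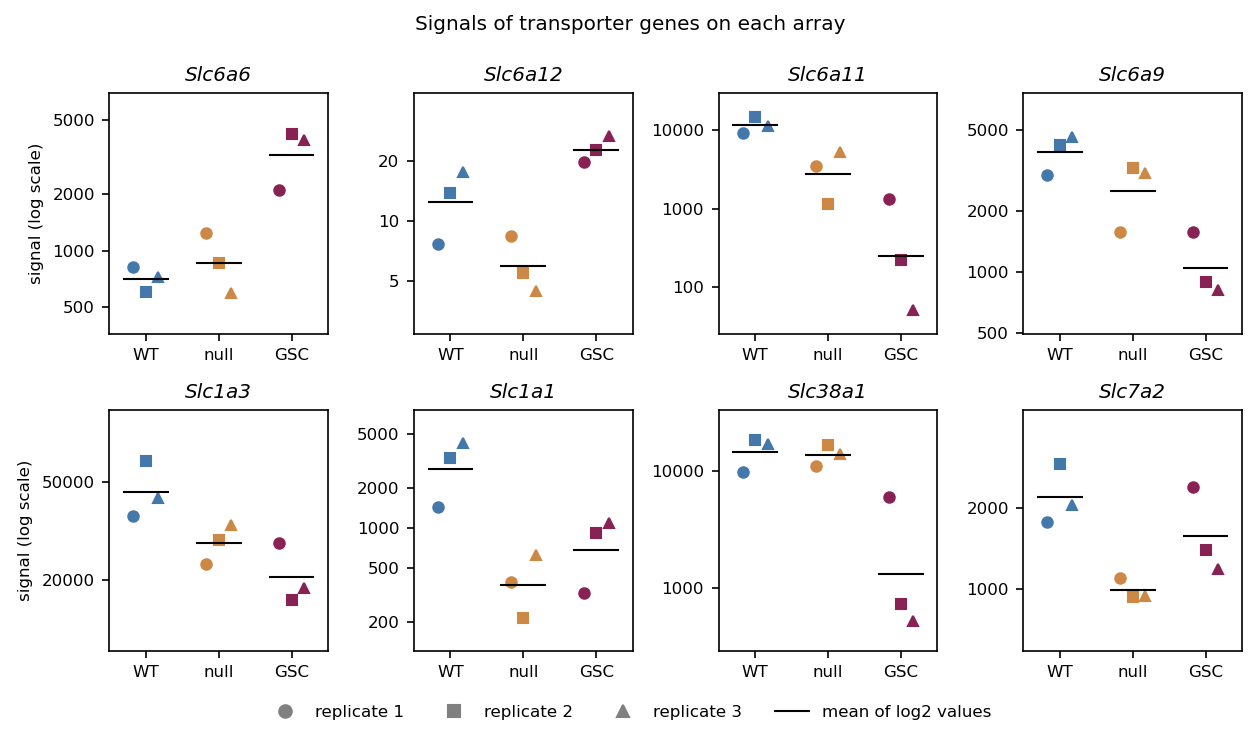
Signals (y axes, log scale, each with its own range) of 8 transporter genes on the 3 wild-type NSC, 3 Nf1-null NSC and 3 GSC arrays, with the symbol for the replicate number and a line at the mean of the log2 values. Slc6a6 and Slc6a12 have all GSC points above the NSC points, Slc6a11 and Slc38a1 have GSC array 1 above the other GSC arrays, and Slc1a1 and Slc7a2 have all Nf1-null points below all wild-type points.

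Of the 3 glycine and proline transporters, Slc6a9 fell in GSC against wild-type NSC. Slc6a9 encodes GlyT1, which takes up glycine into glia. It read 2993, 4217 and 4638 in wild-type NSC, 1567, 3260.1 and 3066 in the Nf1-null NSC and 1578, 892 and 813 in GSC. GSC arrays lay below all wild-type arrays, and the Nf1-null group overlapped both. GSC were 3.71-fold below wild-type NSC (log2 difference -1.89, SE 0.37, adjusted p = 0.0278), and a second bright probe set had the same sign. With the mean of both probe sets the difference was -1.32 (adjusted p 0.0751), and with the replicate number as a block the adjusted p was 0.0541. It passed in 14 of 21 alternatives (0.00479 to 0.108), and not without wild-type array 2 or 3 or GSC array 2 or 3 (0.0778 to 0.099). Slc6a5, the neuronal glycine transporter, and Slc6a7, for proline, were dim, between 3.2 and 134.

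The monoamine transporters Slc6a2, Slc6a3 and Slc6a4, for noradrenaline, dopamine and serotonin, were between 12.6 and 547 and did not pass in any contrast. The 6 carriers of neutral amino acids in Slc6 (Slc6a14 to Slc6a19) did not pass either, and all were among the dimmer genes. Slc6a14 came nearest, at 26.1, 27.5 and 27.5 in wild-type NSC, 35.2, 146 and 41.6 in the Nf1-null NSC and 13.7, 5.2 and 4.2 in GSC. Its 3 groups did not overlap, and the difference of GSC against Nf1-null NSC was -2.97 (SE 0.58, adjusted p = 0.057). Slc6a15, a carrier of branched-chain amino acids in neurons, read 715, 509 and 572 in wild-type and 420.5, 112 and 172 in Nf1-null NSC, without overlap (log2 difference -1.56, SE 0.54, adjusted p = 0.221). Slc6a21, at 16.2 to 138, did not pass in any contrast.

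Among the Slc38 carriers, Slc38a1 fell in GSC against wild-type NSC, and the other 8 did not pass in any contrast. Slc38a1 is a system A carrier that takes up glutamine with sodium. It read 9734, 18247 and 16763 in wild-type NSC, 10964, 16407 and 13858 in the Nf1-null NSC and 6016, 742 and 528 in GSC. The NSC groups overlapped, and GSC arrays 2 and 3 were far below GSC array 1, which was itself below all NSC arrays. The difference was -3.43 (SE 0.84, adjusted p = 0.0458) against wild-type NSC and -3.35 (SE 0.84, adjusted p = 0.108) against Nf1-null NSC. Without GSC array 1 these were -4.52 (adjusted p 0.00342) and -4.43 (0.00519), and without any other single array the adjusted p was 0.066 to 0.142 for the first and 0.15 to 0.309 for the second. Over 21 alternatives it ran from 0.00342 to 0.179 and from 0.00519 to 0.309. Its other probe set, also bright, had the same sign in both, and the mean of both gave -2.48 against wild-type NSC (0.063). With the replicate number as a block the adjusted p against wild-type NSC was 0.0801.

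GSC array 1 stood nearer to the NSC than the other GSC arrays in the astrocyte markers too, whose median on the array, relative to each gene's mean over all arrays, was -0.31 on the log2 scale against -1.64 and -2.53. Without it 8 transporter genes passed between GSC and Nf1-null NSC in place of 2, and the share over all genes rose from 1.75% to 3.96%. They were Slc6a6, Slc6a12, Slc6a16, Slc7a14 and Slc38a10, which were higher, and Slc6a11, Slc6a14 and Slc38a1, which were lower. Of these, Slc6a12, Slc6a14, Slc6a16 and Slc7a14 were among the dimmest 25% of genes, with Slc6a16 at 9.5 to 67.3 over the 9 arrays. Between GSC and wild-type NSC 6 passed, the same 5 genes and Slc38a10, with 9.65% of all genes.

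Slc38a2, the system A carrier that cells raise when amino acids are short, read 8049, 11457 and 7452 in wild-type NSC, 11789, 23492 and 10350.5 in the Nf1-null NSC and 14304, 15088 and 14622 in GSC. All GSC arrays were above all wild-type arrays (log2 difference 0.73, SE 0.32, adjusted p = 0.199). Slc38a3, a system N carrier by which astrocytes release glutamine, read 3013, 4704 and 4494 in wild-type NSC, 1478, 1998 and 4084 in the Nf1-null NSC and 4884, 4848 and 5669 in GSC. GSC arrays were above all others, with a difference of 1.16 (SE 0.37, adjusted p = 0.179) against Nf1-null NSC. Slc38a5, the other system N carrier, was dim, at 43.9, 16.9 and 13.1 in wild-type NSC and 2, 11.6 and 3.6 in Nf1-null NSC. Slc38a9, a lysosomal arginine sensor of the mTORC1 pathway, read 794, 989.6 and 961 in wild-type NSC, 682, 499 and 775 in the Nf1-null NSC and 719.5, 788 and 722 in GSC, with the wild-type arrays above all others. Slc38a10 read 6937, 5967 and 7041 in wild-type NSC, 6993, 5796 and 8298 in the Nf1-null NSC and 8691, 13207 and 14988 in GSC. Its GSC arrays were above all NSC arrays, at 0.85 (SE 0.24, adjusted p = 0.0688) against wild-type NSC. Slc38a6 read 1212, 1915 and 1672 in wild-type NSC, 1047, 1076 and 1589 in the Nf1-null NSC and 784, 954 and 864 in GSC, with the GSC arrays below all others (GSC against wild-type NSC -0.86, SE 0.24, adjusted p = 0.0657). Slc38a7 had log2 differences between -0.03 and 0.07, and Slc38a4 was at 2.8 to 53.8.

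Of the 15 Slc7 genes 0 passed in any contrast. Among the 5 related to the cationic amino acid carriers, Slc7a2, which takes up arginine and lysine, read 1766, 2898 and 2041 in wild-type NSC, 1098, 936 and 939 in the Nf1-null NSC and 2383, 1390.3 and 1182 in GSC. Nf1-null arrays lay below all others. The difference between the NSC was -1.15 (SE 0.30, adjusted p = 0.166), and with the replicate number as a block among the brighter genes it passed at 0.0406, within a range of 0.0406 to 0.657 over 21 alternatives. Slc7a14, a lysosomal relative, was dim, at 110.5, 113 and 103 in wild-type NSC, 13.9, 5.3 and 20.5 in the Nf1-null NSC and 13.3, 98.3 and 132 in GSC (Nf1-null against wild-type NSC -3.12, SE 0.83, adjusted p = 0.17). Its other probe set, also dim, had the opposite sign between the NSC, at 0.36. Slc7a4 had log2 differences from -0.09 to 0.09.

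Slc7a1 encodes CAT1, the widespread arginine and lysine carrier and an Atf4 target. It read 2277, 12175 and 2448 in wild-type NSC, 4815, 43872 and 4536 in the Nf1-null NSC and 8169, 10362 and 8219 in GSC. The array numbered 2 was far above the others in both NSC groups, and in Nf1-null NSC it was 9.11 times the next. The other bright probe set of Slc7a1 showed the same, at 805, 4335 and 996 in wild-type and 2401, 15386 and 2342 in Nf1-null NSC. Nf1-null NSC were higher in each same-numbered pair, by 2.11, 3.6 and 1.85-fold, while the difference of the groups was 1.27 (SE 0.98, adjusted p = 0.557). GSC against wild-type NSC differed by 1.12 (SE 0.98, adjusted p = 0.517). When both NSC arrays numbered 2 were left out, a choice made after seeing the data, this was 1.91 with an adjusted p of 0.032, and Slc7a1 was then the only one of the 49 past the threshold against wild-type NSC. Over 21 alternatives its adjusted p ran from 0.032 to 0.755.

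The same array was high for other Slc7 genes. Slc7a3, a cationic carrier, read 317, 1035 and 241 in wild-type NSC, 278, 4802 and 489 in the Nf1-null NSC and 592, 547 and 436 in GSC. Slc7a5 encodes LAT1, which exchanges glutamine for leucine and other large amino acids. It read 7084, 23856 and 10577 in wild-type NSC, 5929, 44064 and 10612 in the Nf1-null NSC and 16349, 14354 and 10261 in GSC, and its log2 difference between the NSC, 0.21 (SE 0.75, adjusted p = 0.917), was -0.61 without Nf1-null array 2. Slc3a2, the heavy chain of these exchangers, read 6380, 17037 and 10399 in wild-type NSC, 5839, 28818 and 10385 in the Nf1-null NSC and 11879.8, 13985 and 12867 in GSC. Slc7a5 and Slc3a2 thus shared the order of the arrays within each NSC group.

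Slc7a11 encodes xCT, which brings in cystine for glutathione synthesis in exchange for glutamate. It read 975, 2753 and 2003 in wild-type NSC, 250.2, 3303 and 461 in the Nf1-null NSC and 329, 374 and 559 in GSC. GSC arrays lay below all wild-type arrays, and Nf1-null array 2 was the highest of all 9 while the other Nf1-null arrays were below all wild-type arrays. The difference was -2.09 for GSC against wild-type NSC (SE 0.90, adjusted p = 0.189) and -1.27 between the NSC (SE 0.90, adjusted p = 0.517). Its other probe set, which was dim, had the same signs but smaller differences (-0.77 and -0.26). There GSC array 2 (248) and Nf1-null array 3 (238.8) lay above wild-type array 1 (220.3). Without Nf1-null array 2 the adjusted p for GSC against wild-type NSC was 0.0412, within 0.0407 to 0.392 over 21 alternatives. Slc7a6, a light chain for arginine and leucine, read 2612, 2500.5 and 1972 in wild-type NSC, 2808, 2533 and 1957 in the Nf1-null NSC and 1814, 1632 and 1404 in GSC, with the GSC arrays below all others (GSC against wild-type NSC -0.54, SE 0.20, adjusted p = 0.137). The other light chains (Slc7a7, Slc7a8, Slc7a9, Slc7a10, Slc7a12, Slc7a13 and Slc7a15) were among the dimmer genes.

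The genes of the amino acid response showed where the array numbered 2 stood. Of 26 measured, 24 were highest on Nf1-null array 2 among the Nf1-null arrays, 20 of them by at least 2-fold over the next array, against 30.4% and 1.43% of all brighter genes. In wild-type NSC 22 of 26 were highest on array 2 and 6 by at least 2-fold, against 33.6% and 0.231%. Asns, asparagine synthetase, read 3411, 8715 and 4296 in wild-type NSC, 4468, 33912 and 5655 in the Nf1-null NSC and 6223, 7689.8 and 7979 in GSC. Trib3, a pseudokinase that Atf4 and Ddit3 switch on, read 204, 1281 and 339 in wild-type NSC, 268, 5499 and 537 in the Nf1-null NSC and 369, 479 and 455 in GSC. Both had their highest signal on Nf1-null array 2 and their next highest on wild-type array 2. The cause was not tested, and no label names a difference in culture for these arrays. The list as a whole had 1 gene that rose in GSC against wild-type NSC, the kinase gene Eif2ak3, and 0 that passed in the other comparisons in limma, where 2 each had an unadjusted p under 0.05. Its median log2 difference was 0.62 between the NSC, -0.36 between GSC and Nf1-null NSC and 0.34 between GSC and wild-type NSC.

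**Figure D4:**
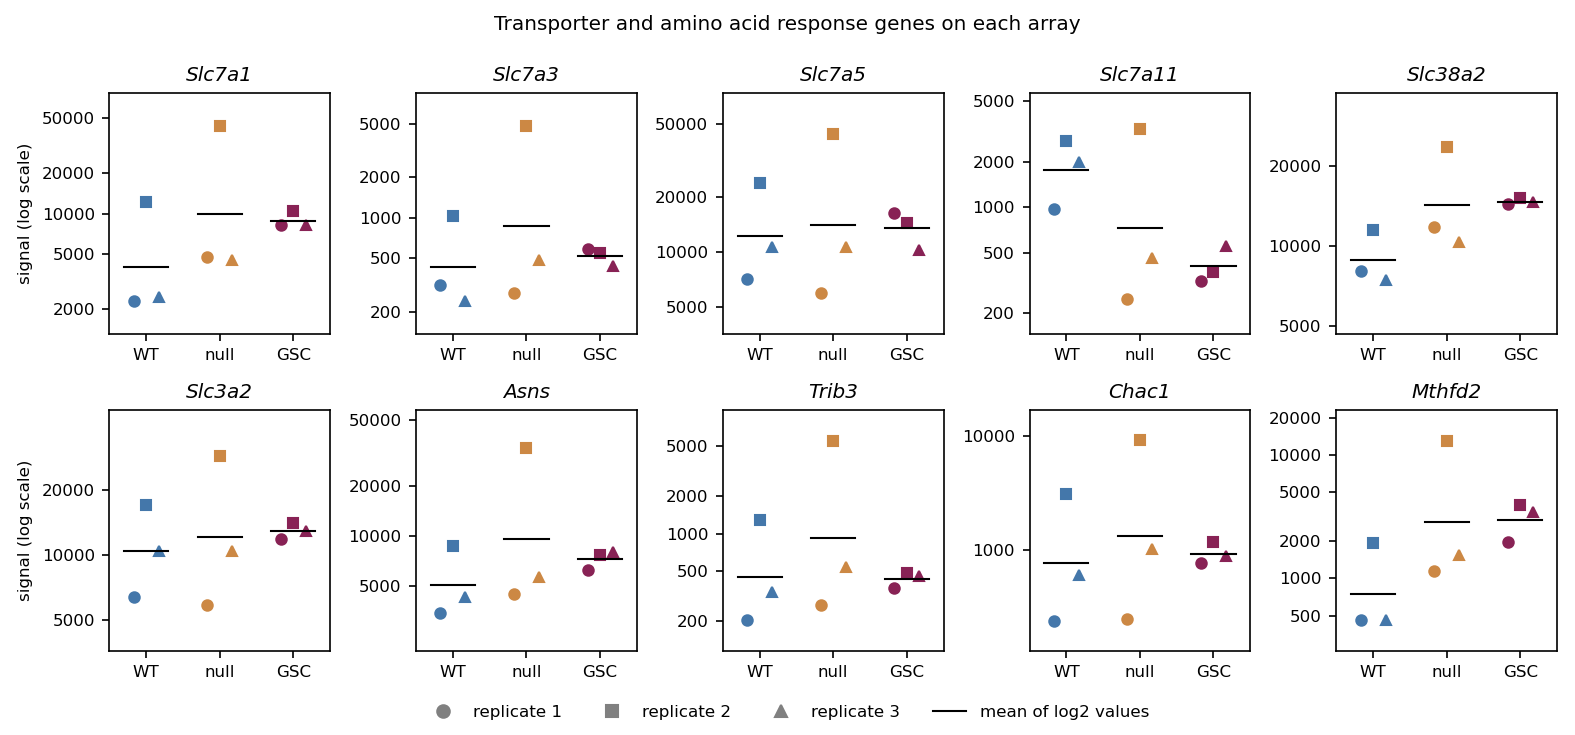
Signals (y axes, log scale, each with its own range) of 5 transporter genes (top) and 5 other genes (bottom) on the 9 arrays. The symbol gives the replicate number and a line the mean of the log2 values. The bottom row has the heavy chain Slc3a2, the amino acid response genes Asns, Trib3 and Chac1, and Mthfd2 of the serine and glycine synthesis list. In each panel Nf1-null array 2 is the highest of the 9, and wild-type array 2 is the highest of its group.

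Genes that were low in the Nf1-null NSC were also read as pairs by array number, though the labels do not state a pairing. Over same-numbered NSC arrays, 19 of the 49 transporter genes were lower in the Nf1-null array of all 3 pairs (38.8%, against 27.7% of all genes) and 5 were higher in all 3 (10.2%, against 20.9%). Among the 21 brighter transporter genes 10 were lower in all 3 (47.6%, against 33.5% of the brighter genes) and 2 were higher (9.52%, against 28.6%). The 19 include Slc1a1, Slc1a2 and Slc1a3, all 3 glutamate transporters that were bright, and Slc6a8, Slc6a9, Slc6a11, Slc7a2 and Slc38a3. The 5 were Slc1a5, Slc6a7, Slc6a14, Slc7a1 and Slc38a2. Markers of oligodendrocyte precursors were, like Slc1a2, Slc6a8 and Slc38a3, lowest on average in Nf1-null NSC, with a summed signal over 8 genes of 87094 to 111110 in Nf1-null NSC, 133650 to 150420 in wild-type NSC and 140030 to 151630 in GSC. None was at 0, 2 of the 8 rose in GSC against Nf1-null NSC (Pcdh15 and Lhfpl3), and between the NSC 0 passed while all 8 differences were negative. Olig1 and Olig2 made up most of each sum, with log2 differences of -0.15 and -0.04 between the NSC, where the median of the 8 was -1.92. In GSC against wild-type NSC 5 of the 8 were positive and 3 negative (median 0.28), with Gpr17 at -3.93. The part of these precursor markers in the transporter values was not tested. With the replicate number as a block, 0 of the 49 passed between the NSC and between GSC and Nf1-null NSC over all genes, and 2 passed between GSC and wild-type NSC (Slc6a6 and Slc6a11). The shares of all genes with that block were 0.0%, 1.06% and 8.44%. Among the brighter genes 4 of 21 passed with the block between the NSC (Slc1a1, Slc1a2, Slc6a8 and Slc7a2, all lower in Nf1-null NSC), against 11.9% of the 9097 genes in that fit.

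Enzymes and carriers that handle the same substrates were also read. Of 14 genes of glutamate, glutamine and GABA metabolism, 3 fell and 0 rose in GSC against wild-type NSC (Glul, glutamine synthetase, Prodh, proline dehydrogenase, and Oat, ornithine aminotransferase), with a median of -0.96 against -0.09 for all genes. Glul is also one of the astrocyte markers above. In the other comparisons 0 of the 14 passed in limma, with 6 between the NSC and 4 between GSC and Nf1-null NSC at an unadjusted p under 0.05. Glul read 29494, 38146 and 45696 in wild-type NSC, 24885, 35662 and 40626 in the Nf1-null NSC and 21788, 14518 and 16289.5 in GSC, so that the GSC arrays lay below all others (log2 difference -1.11, SE 0.27, adjusted p = 0.044). Gad1, which makes GABA, read 1951, 3068 and 1641 in wild-type NSC, 199.7, 454 and 1254 in the Nf1-null NSC and 2536, 3984 and 3773 in GSC. Its Nf1-null arrays were below all others, with a difference of -2.14 (SE 0.62, adjusted p = 0.182) against wild-type NSC and 2.79 (SE 0.62, adjusted p = 0.0813) for GSC against Nf1-null NSC.

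The remaining lists had few calls, all in GSC against wild-type NSC. Of 8 vesicular transporters Slc17a5, a lysosomal sialic acid carrier, and the dim Slc17a6, for glutamate, fell. Of 23 other amino acid carriers Slc25a18, a mitochondrial glutamate carrier, fell. Of 12 genes of serine and glycine synthesis Shmt1 rose, from 605, 604 and 679.5 in wild-type NSC to 2136, 2203 and 1855 in GSC (log2 difference 1.71, SE 0.28, adjusted p = 0.0179). Of 15 genes of glutathione synthesis and cystine use Cbs, which starts the making of cysteine from homocysteine, fell from 1776, 2705 and 3091 to 1076, 196 and 243 (-2.72, SE 0.60, adjusted p = 0.0354). The 21 genes of amino acid sensing to mTORC1 and the 5 partner chains had 0 past the threshold in any comparison in limma. At an unadjusted p under 0.05 the mTORC1 list had 6 between the NSC, 3 between GSC and Nf1-null NSC and 5 between GSC and wild-type NSC, and the partner chains had 0.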

How the data were processed

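RNA from 9 samples was read on Affymetrix Mouse Genome 430 2.0 arrays, from 100 ng total RNA made into biotin-labelled cRNA, per the labels' protocols. The values are linear signal intensities deposited by the authors in the series matrix, 1 per probe set. The summarization tool is not given in the labels. From the values, each array was scaled to a trimmed mean of 1500 (2% off each end). Intensities were taken as log2(value + 1). Of 45101 probe sets, 34945 carry 1 gene symbol in the platform annotation, 932 carry several, 9160 none, and 64 are controls. The brightest by mean log2 stood for each of 18193 genes.

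limma 3.58.1 (R 4.3.3, lmFit and eBayes) fitted 3 group means over all genes, with 6 residual degrees of freedom, 2-sided tests and a Benjamini-Hochberg adjusted p under 0.05 as the threshold. The fit was tested on simulated data. Fold changes come from log2(value + 1), and the added 1 shrinks the ratios of dim genes. Differences of dim genes were not small for that. The median size between the NSC was 0.355 over all genes, against 0.258 over the brighter genes. The number of arrays limits the precision. Tables and plots used Python 3.11.15, pandas 2.3.3 and matplotlib 3.10.9.

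Values on every array are given for transporter genes past the threshold in a contrast, for brighter ones whose groups differed by at least 1 on the log2 scale without overlap, and for Slc1a1, Slc1a2, Slc1a3, Slc6a9, Slc7a5 and Slc7a11 in any case. From the other lists the genes that passed and some of the smallest p were named. Further genes named with values (such as Slc7a1, Slc7a3, Slc38a2, Slc3a2, Asns and Trib3) were chosen after their values were seen. Members, roles and lists (substrate metabolism, carriers, amino acid response, mTORC1 sensing, cell type markers) were chosen with earlier results of these data known. NSC arrays of both groups that share a number deviated together from their group means over the brighter genes (r = 0.643, 0.243 and 0.587) and less over all genes (0.13, 0.055 and 0.17). For Nf1-null NSC and GSC arrays that share a number r was 0.299, 0.115 and 0.109 over the brighter genes, against -0.246 to 0.106 for unlike numbers. For wild-type NSC and GSC arrays it was 0.236, 0.052 and 0.198, against -0.237 to 0.187 for unlike numbers. The labels do not state a pairing. The alternatives tried were another scaling, pseudocount, probe set rule, filter on dim genes, variance trend, threshold and set of arrays, the replicate number as a block, each array left out in turn and, chosen after seeing the data, both NSC arrays numbered 2 left out.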

Additional observations from a re-analysis of the deposited data

How the results depend on the processing

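Counts of transporter genes past the threshold are given with the share of all genes tested in the same fit, except at an adjusted p under 0.1, where that share was not taken. Between the NSC (0 in the report) they were 1 (Slc1a1, 4.38%) when only the 9097 brighter genes were tested, 1 with a mean-variance trend (1.81%), 1 with a robust trend (2.08%) and 0 with any single array left out (0.0% to 0.0055%). Between GSC and Nf1-null NSC (2 in the report, 1.75%) they were 1 with quantile normalization (1.67%), 1 with a pseudocount of 16 (2.13%), 1 without the dimmest 25% of genes (3.93%), 0 with the mean of all probe sets (0.819%), 0 with the 6 arrays of the 2 groups alone (0.159%) and 0 with both NSC arrays numbered 2 left out (0.0879%). They were 3 among the brighter genes (6.67%) and 3 with a trend (4.05%), each time Slc6a6, Slc6a8 and the lower Slc38a1, then 2 with a robust trend (4.25%, Slc6a6 and Slc38a1) and 3 at an adjusted p under 0.1. With single arrays left out they ranged from 0 to 8, while the share of all genes ranged from 0.396% to 3.96%. Between GSC and wild-type NSC (5 in the report, 9.06%) they were 8 among the brighter genes (27.2%), 9 with a trend (14.7%), 8 with a robust trend (15.2%), 10 at an adjusted p under 0.1, 3 with the 6 arrays alone (5.66%), 2 with the mean of all probe sets (5.95%) and 1 (Slc7a1) with both NSC arrays numbered 2 left out (0.956%). They ranged from 0 (without wild-type array 2 or 3 or GSC array 2 or 3, 1.18% to 2.52%) to 6 (without GSC array 1, 9.65%), with 2 without wild-type array 1 (4.83%). With the replicate number as a block the counts were 0 (0.0%), 0 (1.06%) and 2 (8.44%), and with the block among the brighter genes 4 (11.9%), 6 (10.4%) and 11 (33.1%). Of 31 differences of named genes followed across the settings, 5 turned sign, in 3 genes and none past the threshold, and other transporter genes were not followed in this way. Slc7a5 between the NSC was -0.18 without wild-type array 1, -0.61 without Nf1-null array 2 and -0.13 without both arrays numbered 2, within -0.61 to 0.83 with single arrays left out. For GSC against Nf1-null NSC it was 0.0023 with arrays shifted to 1 median, 0.76 without Nf1-null array 2, 0.12 without GSC array 3 and 0.76 without both arrays numbered 2 (single arrays left out -0.69 to 0.76), and against wild-type NSC -0.25 without wild-type array 1 (-0.25 to 0.63). Slc7a11 for GSC against Nf1-null NSC was 0.27 without Nf1-null array 2 (-1.59 to 0.27) and 0.27 without both arrays numbered 2, and Slc7a3 between the NSC was -0.22 without Nf1-null array 2 (-0.22 to 1.83). Fewer arrays or genes tested change the counts by construction, and the cause of the other changes was not tested. Background signals were not used here, so how far the 16 transporter genes among the dimmest 25% of genes stand above background was not tested.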
